A study of Mus musculus and Homo sapiens with 81 samples.

Results

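The interferon regulatory factors (IRFs) are a family of DNA-binding proteins that turn interferon and pathogen signals into changes of transcription. The members followed here are 7 of them, Irf1, Irf2, Irf3, Irf5, Irf7, Irf8 and Irf9, taken by symbol from a mouse table of 23336 genes and, under the upper-case symbols, from 4 human tables of 23227 genes each. All 7 were found in each table. After the filter on low counts, 7 of 7 were tested in B16, A549 and HT29 and 6 of 7 in A375 and MelJuSo, where IRF8 held too few counts.

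Each IRF carries a DNA-binding domain that reads the core GAAA, repeated in the interferon-stimulated response element (ISRE). Type I interferons such as interferon-beta (IFNb) act on ISREs through the complex ISGF3, of which IRF9 is a part, while interferon-gamma (IFNg) acts on gamma-activated sites (GAS), one of which controls IRF1. IRF3, IRF5 and IRF7 are instead switched on by phosphorylation downstream of nucleic acid sensors and Toll-like receptors. PTPN2 is a phosphatase that removes phosphate from the receptor kinases JAK1 and JAK3.

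The study asked how loss of Ptpn2 alters the response of tumour cells to cytokines, with poly(A) RNA-seq of 81 libraries from the mouse melanoma line B16 (42 libraries, 14 groups of 3) and the human lines MelJuSo and A375, both from melanoma, HT29 from colon and A549 from lung cancer. All cells expressed Cas9 and carried a lentiviral guide: Ptpn2sg3 for the Ptpn2-null cells, and the non-targeting guides Bro3 (B16) or Bro4 (human lines) for the controls, so each genotype rests on 1 guide. Cultures received vehicle (PBS with bovine albumin), IFNb at 1000 U/mL, IFNg at 100 ng/mL or tumour necrosis factor (TNFa) at 10 ng/mL for 48 h. B16 cells of both genotypes received all 7 treatments, vehicle, IFNb, IFNg, TNFa and the pairs IFNb with IFNg, IFNb with TNFa and IFNg with TNFa, while the human lines received vehicle or IFNg. A375 groups held 3 libraries except control vehicle (2), MelJuSo groups 3, and A549 and HT29 groups 2. Whether replicates came from cultures kept apart is not in the labels, and p-values cover only the spread of the libraries, which may be technical.

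Libraries held 3498860 to 6432517 counts in B16 and 4191317 to 9605776 in the human lines. In B16, Ptpn2 was lower in every library labelled null (8.23 to 16.4 CPM, counts scaled to the library total) than in every control library (44.7 to 61.9 CPM). PTPN2 was also lower in the groups labelled null of A549, HT29 and MelJuSo and of A375 under IFNg. In A375 under vehicle it went against the labels, at 24.1 to 25.1 CPM in the libraries labelled null and 11.9 to 12.1 CPM in those labelled control, so directions that rest on those 5 libraries are given by label only. One HT29 control library under IFNg carries a lung cell type in one of its labels and was kept in HT29, which its title names. In B16, 5 libraries stood apart from their groups, all under TNFa, IFNb with IFNg or IFNg with TNFa. The melanocyte genes marked B16 (summed 3570 to 16600 CPM) and MelJuSo (3220 to 4590 CPM), epithelial keratins and cadherins marked A549 and HT29, and A375 had only 3 of 6 melanocyte markers past the filter. In A375 the melanocyte genes summed to 161 to 284 CPM and the epithelial genes to 240 to 535 CPM, with KRT18 highest (mean 296 CPM).

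The promoters of the mouse members were read from RefSeq (GRCm38.p6), from 250 bases before to 50 after each start, and 3 are printed because Irf1, Irf7 and Irf9 rose under either interferon alone in B16, and only the first holds a match to a searched motif. They are given 5′ to 3′ on the gene's strand, with matches in capitals: chr11:53769764-53770063 on the plus strand for Irf1, chr7:141266375-141266674 on the minus strand for Irf7 and chr14:55603735-55604034 on the plus strand for Irf9.
Irf1: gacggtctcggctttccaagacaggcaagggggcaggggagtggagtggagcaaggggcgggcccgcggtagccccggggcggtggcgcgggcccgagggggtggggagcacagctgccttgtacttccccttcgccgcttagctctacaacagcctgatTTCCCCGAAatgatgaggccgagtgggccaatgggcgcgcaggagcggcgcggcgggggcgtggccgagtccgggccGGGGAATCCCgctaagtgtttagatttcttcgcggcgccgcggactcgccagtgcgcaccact
Irf7: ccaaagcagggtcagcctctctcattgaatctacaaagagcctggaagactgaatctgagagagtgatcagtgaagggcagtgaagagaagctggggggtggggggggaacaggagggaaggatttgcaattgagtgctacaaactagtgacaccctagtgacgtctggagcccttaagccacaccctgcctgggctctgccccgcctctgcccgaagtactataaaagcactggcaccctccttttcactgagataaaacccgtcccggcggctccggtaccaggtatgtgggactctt
Irf9: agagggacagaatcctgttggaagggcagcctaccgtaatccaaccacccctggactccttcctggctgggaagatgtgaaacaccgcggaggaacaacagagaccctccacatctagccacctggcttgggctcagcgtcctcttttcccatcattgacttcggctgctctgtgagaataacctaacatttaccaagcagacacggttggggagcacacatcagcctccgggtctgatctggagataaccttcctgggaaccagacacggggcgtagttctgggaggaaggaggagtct

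The motifs searched on both strands were the GAS (TTCNNNGAA), the ISRE core (GAAA, any 2 bases, GAAA) and the kappaB site, to which NF-kappaB binds. Of 32851 mouse promoters of this length, 8.3% held the GAS letters, 3.44% the ISRE letters and 4.51% a kappaB match. Irf1 held a GAS match (TTCCCCGAA) at -90 to -82 from its start and a kappaB match (GGGGAATCCC) at -13 to -4. Irf2 held an ISRE match (GAAAATGAAA) at -241 to -232, a GAS match (TTCCGAGAA) at -224 to -216 and a kappaB match (GGGGATTTCC) at -17 to -8. Irf8 held 2 GAS matches, TTCTCGGAA at -171 to -163 and TTCAGAGAA at -153 to -145. These letters were not found in the windows of Irf3, Irf5, Irf7 and Irf9, nor in further windows at other starts of Irf1 and Irf8. The windows of Irf9 begin at 55603735 or later, inside its gene model, which starts at 55603571. Bases before that start of Irf9 were not searched.

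In B16 control cells the members fell into different patterns by cytokine, and IFNg moved all 7. Counts were scaled by edgeR's TMM factors and tested with its quasi-likelihood test, and a member is called when its Benjamini-Hochberg adjusted p over all 11726 tested genes is below 0.05. IFNg raised 6 of 7 members and lowered 1, where 20% of all genes were called higher and 17.9% lower. TNFa raised 6 of 7 (24.7% of genes were called higher), and IFNb raised 3 of 7 (17%). The median log2 fold change of the members was 4.38 under IFNg, 0.95 under TNFa and 0.74 under IFNb, against 0.00, 0.05 and 0.02 over all genes. Irf8 passed the filter only through groups that received IFNg, so its calls as higher there than in groups without IFNg follow from the filter. Irf5 and Irf7 held 10 and 5 counts over the control vehicle group and passed only through groups that received a cytokine. Their calls as higher than vehicle therefore follow in part from the filter. Irf5, Irf7 and Irf8 are included in the counts and medians here and below. Where no group received IFNg, Irf8 held too few counts to be called. All comparisons with vehicle share the same 3 vehicle libraries.

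**Figure D1:**
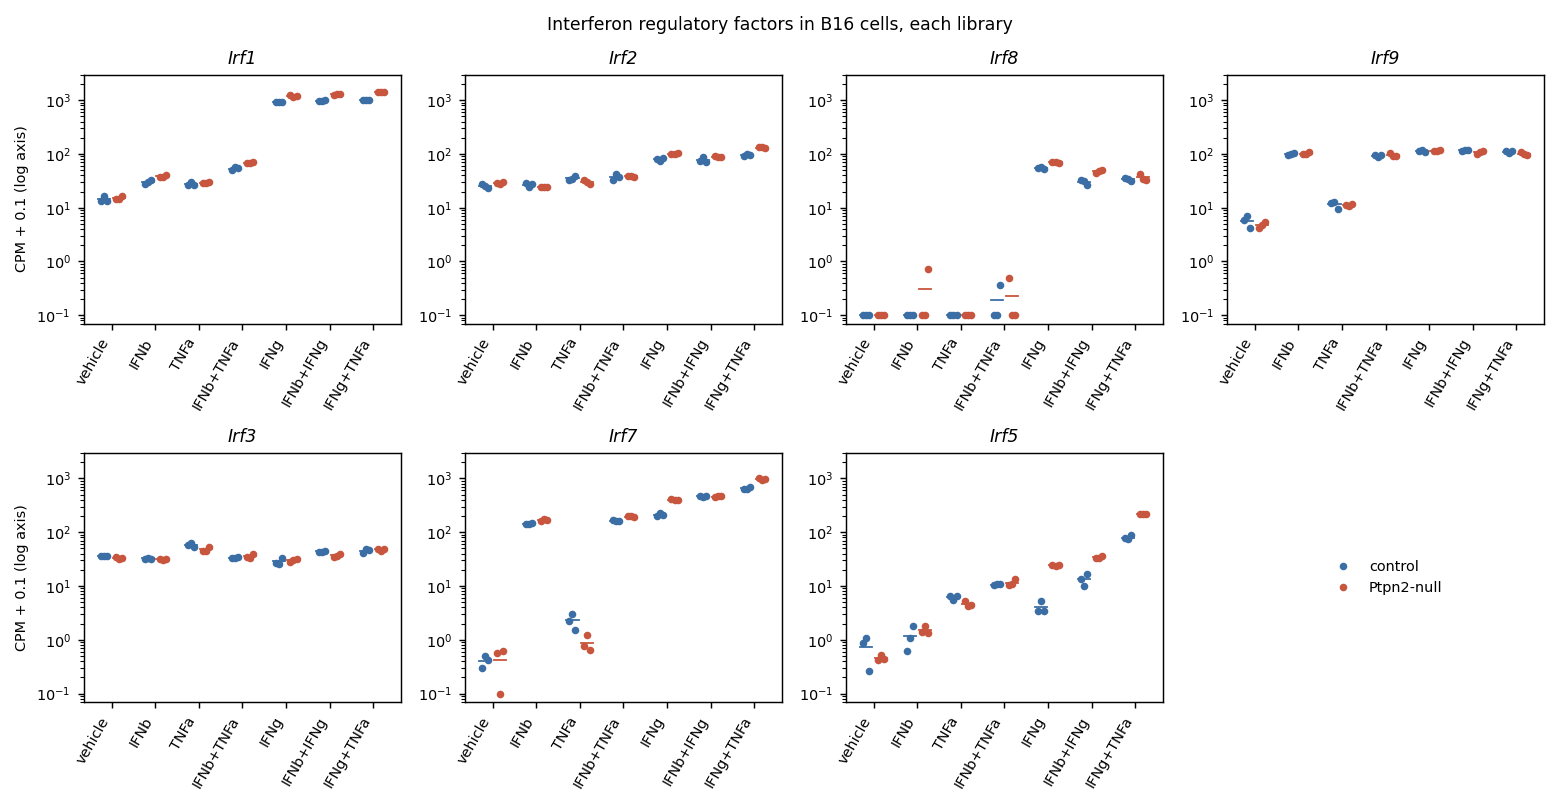
Level of each member in every B16 library, as CPM plus 0.1 on a log axis (points) with the group mean (bars), by treatment and genotype. Irf8 sits at the bottom of the axis without IFNg, and Irf5 reaches its highest level, 219 CPM, in Ptpn2-null cells under IFNg with TNFa.

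Irf1, an activator of antigen presentation genes and the family's best known IFNg target (chr11:53770014-53778374, GRCm38), stood at 13.4, 16.6 and 13.5 CPM in the 3 control vehicle libraries. It reached 941, 934 and 912 CPM under IFNg, 27.6, 30.2 and 32.5 CPM under IFNb and 26.1, 30.5 and 26.3 CPM under TNFa. None of these groups overlapped vehicle. The rise was 64.2-fold under IFNg (SE 0.08 on the log2 scale, edgeR adjusted p = 6.4e-55), 2.08-fold under IFNb (adjusted p = 2.9e-14) and 1.93-fold under TNFa (adjusted p = 7.6e-12). IFNg exceeded IFNb by 4.95 ± 0.06 (edgeR adjusted p = 5.2e-53), one of 6 members higher under IFNg than under IFNb (17.4% of genes).

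Irf2, which binds the same sites as Irf1 and represses many of them (chr8:46739732-46847458), moved less. It stood at 27.8, 25.1 and 23.2 CPM under vehicle and at 79.4, 75.3 and 82.9 CPM under IFNg, a 3.12-fold rise (log2 1.64 ± 0.09, edgeR adjusted p = 2e-23). Under TNFa it was at 33.4, 34.0 and 39.4 CPM, 1.41-fold higher (adjusted p = 3.9e-05, edgeR). IFNb gave 28.9, 24.4 and 27.0 CPM, which overlapped vehicle, with an interval of -0.11 to 0.29 for the log2 difference (2 SE either side). Per kb of its principal transcript, control vehicle cells held more Irf2 (10.2 CPM per kb) than Irf1 (6.78), and under IFNg the order turned, with Irf1 at 435 and Irf2 at 31.7 CPM per kb.

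Irf8, a factor of myeloid and B cells that pairs with other DNA-binding proteins (chr8:120736358-120756694), had no count in any control library under vehicle, IFNb or TNFa. Under IFNg it stood at 55.7, 57.8 and 52.0 CPM, 945 counts in all, which is at least 301-fold higher than vehicle when vehicle is set at 3 counts over the group. Of the other treatments, IFNb with IFNg gave 32.8, 31.8 and 25.9 CPM (at least 165-fold) and IFNg with TNFa 36.3, 33.8 and 31.1 CPM (at least 182-fold). In the groups without IFNg, both genotypes together, the largest total was 3 counts, in Ptpn2-null cells under IFNb. Leukocyte markers did not rise beside it: the 8 genes summed to 0.332 to 0.648 CPM in control IFNg libraries and 0 to 0.974 CPM under vehicle, and Ptprc, Itgam and Itgax were at 0 in every B16 library.

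Irf9, the DNA-binding subunit of ISGF3 (chr14:55603571-55610030), rose to about the same level under either interferon. From 5.72, 6.82 and 4.11 CPM under vehicle it reached 97.2, 99.1 and 106 CPM under IFNb and 115, 117 and 110 CPM under IFNg. These are rises of 18.3-fold and 20.8-fold (log2 4.20 ± 0.14 and 4.38 ± 0.14, edgeR adjusted p = 2.1e-36 and 3.2e-38). The 2 interferons differed by only 0.18 ± 0.07 (edgeR adjusted p = 0.026), a call lost when any one of 3 libraries was left out (adjusted p = 0.062 to 0.1). TNFa gave 12.2, 12.9 and 9.54 CPM, 2.1-fold above vehicle (adjusted p = 8.3e-07, edgeR). Irf9 shares 123 exon bases (2.28%) with Rnf31 on the same strand, and Rnf31 rose by 2.38 ± 0.11 under IFNg, so reads of the shared stretch cannot be told apart.

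Irf7, the inducible factor that drives interferon-alpha genes (chr7:141262706-141266481), went from near absence to among the most abundant members. Vehicle libraries held 0.197, 0.39 and 0.329 CPM, 5 counts in all. IFNb libraries held 142, 142 and 149 CPM, IFNg libraries 203, 225 and 212 CPM and TNFa libraries 2.17, 2.94 and 1.45 CPM. The log2 rises were 8.76 ± 0.52, 9.33 ± 0.52 and 2.76 ± 0.56 (edgeR adjusted p = 7.6e-44, 2.2e-47 and 5.8e-06), with errors set by the few vehicle counts. IFNg exceeded IFNb by 0.57 ± 0.06 (adjusted p = 3e-12, edgeR), and the groups did not overlap.

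Irf3, the constitutive factor that waits for phosphorylation by TBK1 (chr7:44997648-45002848), varied least. It stood at 35.5, 36.2 and 36.0 CPM under vehicle, at 26.9, 25.9 and 33.6 CPM under IFNg and at 57.0, 62.9 and 52.9 CPM under TNFa. It fell by 0.33 on the log2 scale under IFNg (SE 0.10, edgeR adjusted p = 0.0042) and rose by 0.68 ± 0.09 under TNFa (adjusted p = 1.3e-08). IFNb libraries, at 31.9 to 33.6 CPM, lay below the vehicle libraries without passing the test (-0.14 ± 0.09, edgeR adjusted p = 0.27). Irf3 shares 88 exon bases (2.56%) with Bcl2l12 on the opposite strand, which was not called under IFNg (0.13 ± 0.21).

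Irf5, a mediator of inflammatory cytokine genes downstream of Toll-like receptors (chr6:29526625-29541871), was the member with the largest estimated rise under TNFa. It stood at 0.79, 0.975 and 0.164 CPM under vehicle, 10 counts in all, at 6.51, 5.33 and 6.43 CPM under TNFa and at 3.32, 5.18 and 3.30 CPM under IFNg. The log2 rises were 3.24 ± 0.46 under TNFa (edgeR adjusted p = 2e-10) and 2.65 ± 0.47 under IFNg (adjusted p = 7.7e-08). The interval of the Irf5 rise under TNFa overlaps that of Irf7, and no test compared these members. IFNb gave 0.507, 0.993 and 1.69 CPM, which overlapped vehicle (0.74 ± 0.55, edgeR adjusted p = 0.32). Irf5 shares 411 exon bases (14.15%) with Tnpo3 on the opposite strand. Tnpo3 fell by 0.13 under IFNg and by 0.59 under IFNg with TNFa, while Irf5 rose.

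Pairs of cytokines were compared with the single ones in control cells. IFNb with IFNg and IFNg with TNFa each raised 7 of 7 members over vehicle (34.3% and 36% of all genes were called higher), and IFNb with TNFa raised 5 of 7 (21.6%). The Irf3 call under IFNb with IFNg was lost with no filter on low counts (edgeR adjusted p = 0.052). Its log2 rise was 0.30 in the main fit and 0.24 without the 5 libraries that stand apart. TNFa added to IFNg raised 5 members and lowered 1 (31.3% of genes higher, 30.2% lower). IFNb added to IFNg raised 3 and lowered 1 (29.8% and 28.1%), and TNFa added to IFNb raised 4 (5.39% of genes). Control libraries of IFNb with IFNg include 2 of those that stand apart, so a fit without the 5 such libraries leaves 1 there. It cannot show whether calls for IFNb added to IFNg hold. In that fit the counts of members called for TNFa added to IFNg and to IFNb stayed within 1.5 times.

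**Figure D2:**
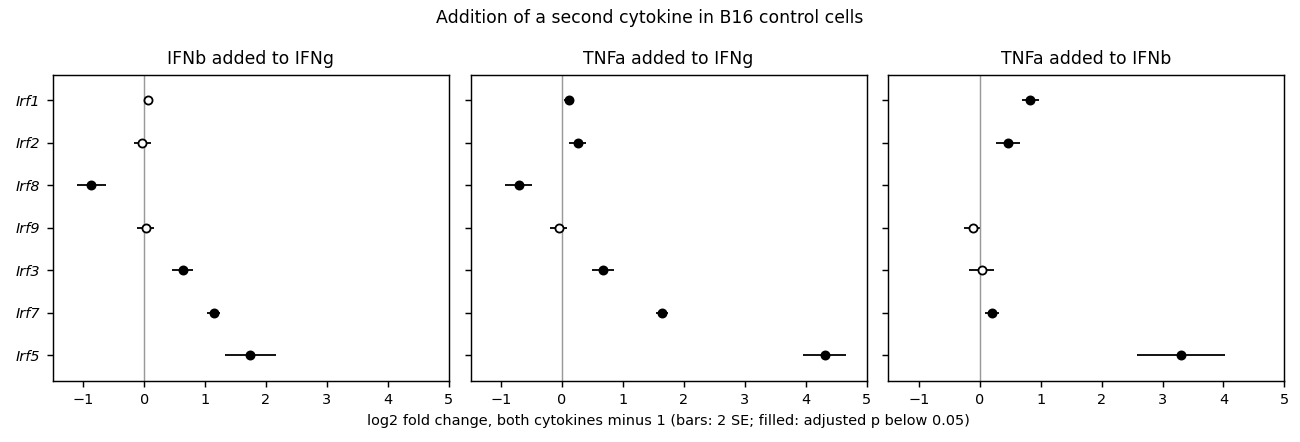
Log2 fold change of each member when a second cytokine was added in B16 control cells, with bars of 2 SE and filled points where the edgeR adjusted p is below 0.05. Irf5 lies farthest to the right in all panels, and Irf8 lies left of 0 in both panels with IFNg. Irf8 is not drawn for TNFa added to IFNb, where its groups held 0 and 1 counts.

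Irf5 showed the largest effect of a second cytokine. Libraries of IFNg with TNFa held 77.4, 74.1 and 87.2 CPM, 19.9-fold above IFNg alone (log2 4.31 ± 0.18, edgeR adjusted p = 3.1e-32) and 125-fold above vehicle (6.96 ± 0.44, adjusted p = 1.3e-35). Neither cytokine alone brought Irf5 above 6.51 CPM in a control library. On the log2 scale the pair exceeded the sum of the single effects by 1.07 ± 0.50, which did not pass the test (edgeR adjusted p = 0.17) and did so without vehicle replicate 3 (1.57, adjusted p = 0.046). IFNb added to IFNg raised Irf5 from 3.93 ± 1.08 to 13.4 ± 3.44 CPM (SD, n = 3), by 1.74 ± 0.21 (edgeR adjusted p = 1.3e-10).

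Irf7 rose further when either cytokine joined IFNg. It reached 481, 453 and 472 CPM with IFNb and 646, 645 and 702 CPM with TNFa, rises of 1.14 ± 0.05 and 1.64 ± 0.05 over IFNg alone (edgeR adjusted p = 4.9e-24 and 3.5e-32). TNFa alone had brought it to only 2.19 ± 0.746 CPM (SD, n = 3), and TNFa added to IFNb gave 168, 164 and 163 CPM, 0.20 ± 0.06 above IFNb (edgeR adjusted p = 0.019, and 0.051 to 0.11 when any of 4 libraries was left out). Irf7 shares 45 exon bases (1.19%) with Phrf1 on the opposite strand, whose differences from vehicle were 0.10 ± 0.06 under IFNg and 0.09 ± 0.06 under IFNg with TNFa.

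Irf8 was the member that fell when a second cytokine was added to IFNg. It fell by 0.87 on the log2 scale with IFNb (SE 0.12, edgeR adjusted p = 6.1e-08) and by 0.71 with TNFa (adjusted p = 7.7e-07), and neither pair overlapped IFNg alone. Irf1, Irf2 and Irf9 moved little beyond IFNg: the log2 differences were 0.07, -0.03 and 0.03 with IFNb, none called, and 0.12, 0.26 and -0.05 with TNFa, of which Irf1 and Irf2 were called. The Irf1 call for TNFa added to IFNg (edgeR adjusted p = 0.014) was lost when any of 5 libraries was left out (adjusted p = 0.059 to 0.12). Irf1 did rise with TNFa added to IFNb, to 49.8, 56.1 and 54.2 CPM, by 0.83 ± 0.07 (edgeR adjusted p = 2.1e-13).

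Irf9 fell short of additivity on the log2 scale in every pair, by 4.17 for IFNb with IFNg, 1.19 for IFNb with TNFa and 1.12 for IFNg with TNFa (edgeR adjusted p = 5.1e-32, 5.4e-06 and 1.8e-06). These were among 4, 3 and 2 of 7 members called in these tests, beside 46.8%, 26.3% and 25.6% of genes. The Irf9 mean was 92.5 to 116 CPM in all control groups that received an interferon. Irf3 went beyond additivity for IFNb with IFNg by 0.77 ± 0.13 (edgeR adjusted p = 5.6e-06): it was at 43.7, 43.1 and 45.5 CPM there, above both single interferons. Under IFNb with TNFa, by contrast, Irf3 was at 32.8 to 34.4 CPM, 0.65 ± 0.13 short of additivity (edgeR adjusted p = 0.00026).

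Ptpn2-null B16 cells were then compared with controls under each treatment. Under vehicle 0 of 7 members were called (3.07% of genes), also with DESeq2, and 0 had an unadjusted p below 0.05. Under IFNg 5 of 7 were higher in Ptpn2-null cells (17.7% of genes higher). The counts were 4 higher and 1 lower under IFNb with IFNg (19.2% and 19.2%), 4 higher under IFNg with TNFa (20.3%), 2 higher for IFNb alone (0.384%), 2 higher when TNFa was with it (0.426%) and 0 for TNFa alone (0.938% in either direction; 0 with DESeq2 and 3 at an unadjusted p below 0.05). The median log2 difference of the members under IFNg was 0.35, against 0.00 over all genes.

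**Figure D3:**
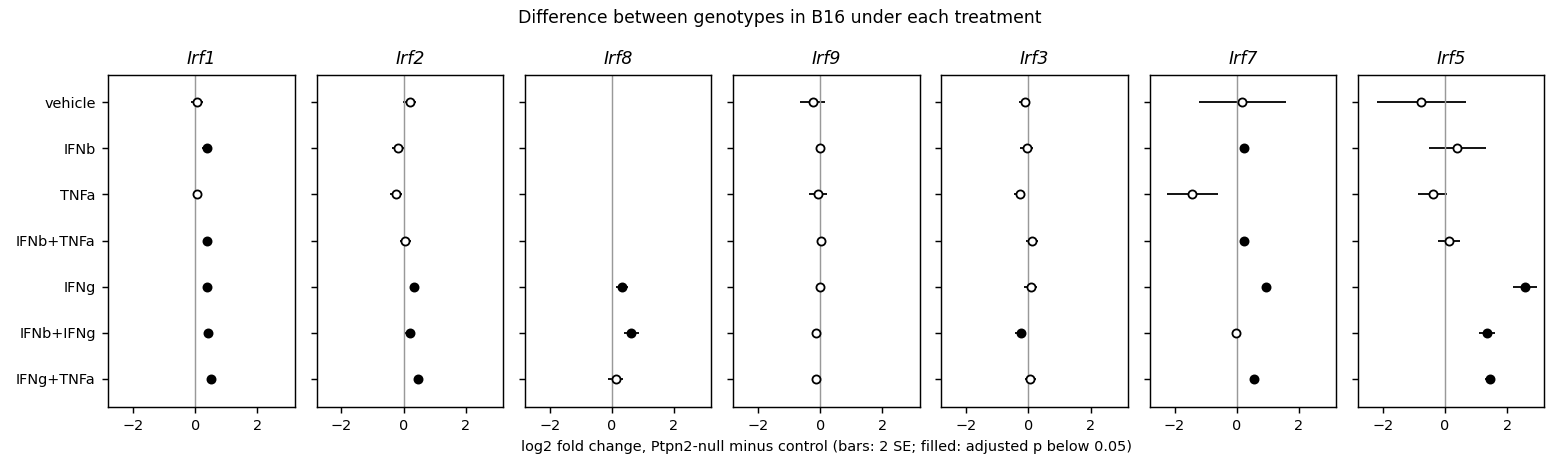
Log2 fold change between Ptpn2-null and control B16 cells for each member under each treatment, with bars of 2 SE and filled points where the edgeR adjusted p is below 0.05. Irf5 under IFNg lies farthest from 0 at 2.58, Irf9 has no filled point, and Irf8 is drawn only where its groups held more than 3 counts.

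Irf5 differed most between genotypes. Under IFNg the Ptpn2-null libraries held 24.3, 23.4 and 24.3 CPM against 3.32, 5.18 and 3.30 CPM in controls, 6.0-fold (log2 2.58 ± 0.19, edgeR adjusted p = 1.3e-18). Under IFNb with IFNg they held 33.3, 33.0 and 35.5 CPM against 13.5, 9.93 and 16.8 CPM (1.34 ± 0.13, edgeR adjusted p = 3.1e-12). Under IFNg with TNFa they held 222, 215 and 220 CPM against 77.4, 74.1 and 87.2 CPM (1.46 ± 0.08, edgeR adjusted p = 4.3e-22). No library of one genotype overlapped the other in these 3 treatments.

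Where IFNg was absent, Irf5 was not called between genotypes. Ptpn2-null and control means were 0.357 and 0.643 CPM under vehicle, 1.40 and 1.06 under IFNb, 4.58 and 6.09 under TNFa and 11.5 and 10.5 under IFNb with TNFa. The intervals of these log2 differences ran from -2.19 to 0.66, -0.52 to 1.32, -0.87 to 0.08 and -0.20 to 0.46. The response to IFNg was itself larger in Ptpn2-null cells by 3.35 ± 0.74 (edgeR adjusted p = 0.00038), 1 of 7 members with a larger response (9.07% of genes). Its size rests in part on few vehicle counts, 10 over the control and 6 over the Ptpn2-null group. For IFNb with IFNg and IFNg with TNFa the responses differed by 2.10 ± 0.72 and 2.22 ± 0.72 (edgeR adjusted p = 0.031 and 0.012, 2 of 7 members each, beside 6.69% and 11% of genes called higher), and both calls were lost when control vehicle replicate 1 or 2 was left out (adjusted p = 0.066 to 0.23), the first also without Ptpn2-null vehicle replicate 1 or 3 (adjusted p = 0.072 and 0.063). The second member called for these pairs was Irf1, at 0.36 ± 0.11 and 0.44 ± 0.11 (edgeR adjusted p = 0.042 and 0.0056), both lost without control vehicle replicate 2 (adjusted p = 0.25 and 0.085). With only the groups compared, the calls for IFNb with IFNg were lost for Irf1 (edgeR adjusted p = 0.054) and Irf5 (edgeR adjusted p = 0.088), and that of Irf1 also without Ptpn2-null vehicle replicate 1 or 2 (edgeR adjusted p = 0.12 and 0.083). For IFNg alone the Irf1 value was 0.32 ± 0.11 and not called (edgeR adjusted p = 0.065).

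Irf7 differed between genotypes by treatment. Under IFNg it stood at 417, 406 and 394 CPM in Ptpn2-null cells and 203, 225 and 212 CPM in controls (log2 0.93 ± 0.05, edgeR adjusted p = 6.3e-21). With IFNb and IFNg together the genotypes overlapped, at 444, 466 and 464 against 481, 453 and 472 CPM (-0.03 ± 0.05, edgeR adjusted p = 0.63). Under IFNg with TNFa the Ptpn2-null libraries, at 1003, 940 and 996 CPM, were again above the controls by 0.56 ± 0.05 (edgeR adjusted p = 4.7e-14). Under IFNb, alone or with TNFa, the differences were 0.25 ± 0.06 and 0.24 ± 0.06 (edgeR adjusted p = 0.019 and 0.02), and each was lost when any one of 4 libraries was left out (adjusted p = 0.082 to 0.17). With TNFa alone Irf7 was at 0.652, 1.14 and 0.542 CPM in Ptpn2-null and 2.17, 2.94 and 1.45 CPM in control libraries, without overlap and without passing the test (-1.43 ± 0.41, edgeR adjusted p = 0.11).

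A further 3 differences of the genotype effect between treatments were tested as well, chosen after these values were seen. The effect of genotype on Irf7 was larger under IFNg than under IFNb by 0.68 ± 0.08 (edgeR adjusted p = 1.3e-09) and larger under IFNg than under IFNb with IFNg by 0.96 ± 0.07 (adjusted p = 1.4e-14). For Irf5 the same differences were 2.18 ± 0.50 (edgeR adjusted p = 0.0012) and 1.25 ± 0.24 (adjusted p = 0.00013), the first of them lost without control IFNb replicate 3 (1.68, adjusted p = 0.078). With TNFa added to IFNg the genotype effect was smaller than under IFNg alone for Irf5, by 1.12 ± 0.21, and Irf7, by 0.37 ± 0.07 (edgeR adjusted p = 2.7e-05 and 0.00018). In these tests 3, 2 and 2 of 7 members were called, beside 19.9%, 8.46% and 11% of all genes.

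Irf1 was higher in Ptpn2-null cells by a similar amount under every treatment that held an interferon. The log2 differences were 0.37 with IFNb, 0.37 with IFNg, 0.41 with both, 0.36 with IFNb and TNFa, and 0.49 with IFNg and TNFa (SE 0.04 to 0.08, edgeR adjusted p = 0.01 to 3.1e-14), and no groups overlapped. Under IFNg the Ptpn2-null libraries held 1223, 1170 and 1214 CPM against 941, 934 and 912 CPM. The call under IFNb was lost when Ptpn2-null replicate 3 or control replicate 1 was left out (adjusted p = 0.27 and 0.29). Between IFNg and IFNb the genotype effect differed by 0.00 ± 0.09 (interval -0.18 to 0.17).

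Irf2 was higher in Ptpn2-null cells under IFNg, at 102, 98.0 and 102 CPM against 79.4, 75.3 and 82.9 CPM (0.35 ± 0.07, edgeR adjusted p = 6.8e-05), and under IFNg with TNFa, at 133, 132 and 127 against 91.4, 97.7 and 94.4 CPM (0.47 ± 0.07, edgeR adjusted p = 7.8e-08). Its genotype effect under IFNg exceeded that under IFNb by 0.52 ± 0.13 (edgeR adjusted p = 0.0014). Irf8 was higher in Ptpn2-null cells under IFNg, at 69.3, 70.5 and 68.5 CPM against 55.7, 57.8 and 52.0 CPM (0.33 ± 0.10, edgeR adjusted p = 0.011, and 0.051 without control replicate 3), and under IFNb with IFNg, at 43.5, 48.3 and 49.5 against 32.8, 31.8 and 25.9 CPM (0.63 ± 0.12, edgeR adjusted p = 5.7e-05). Under IFNg with TNFa the Irf8 libraries of the genotypes overlapped (0.12 ± 0.12, edgeR adjusted p = 0.46). The Irf2 difference under IFNb with IFNg, 0.19 ± 0.07, and that of Irf3, -0.25 ± 0.09, were called there (edgeR adjusted p = 0.037 and 0.028), in the treatment that held 3 of the libraries that stand apart. Irf3 was no longer called with DESeq2 (adjusted p = 0.1) or with only the groups compared (edgeR adjusted p = 0.13). Without the 5 such libraries, which leaves 1 control library there, its difference was -0.25. Irf2, whose libraries overlapped, was lost with the transcript length trend of the libraries removed (edgeR adjusted p = 0.15).

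Irf9 was not called between genotypes under any of the 7 treatments. Under IFNg it stood at 113, 112 and 117 CPM in Ptpn2-null and 115, 117 and 110 CPM in control cells, a log2 difference of 0.00 with an interval of -0.13 to 0.13. Its overlapping gene Rnf31 was higher there by 0.26 ± 0.08. The largest differences under an interferon were -0.12 in both pairs with IFNg, with intervals of -0.26 to 0.01 and -0.25 to 0.02. Irf3 under IFNg differed by 0.07 ± 0.10 (interval -0.13 to 0.27).

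Levels were also ordered over the 14 B16 groups. Irf1 was highest in Ptpn2-null cells under IFNg with TNFa (1417 ± 19.3 CPM, SD, n = 3), and each of its 9 highest groups lay clear of the next. Irf5 and Irf7 were highest in that group too, at 219 ± 3.93 and 980 ± 34.5 CPM, without overlap with the next group. Irf8 was highest in Ptpn2-null cells under IFNg alone (69.5 ± 1.01 CPM). For Irf9 the 10 groups that received an interferon formed an unbroken chain of overlapping neighbours from 92.5 to 116 CPM. Irf3 was highest in control cells under TNFa (57.6 ± 5.03 CPM) and lowest in control cells under IFNg (28.8 ± 4.20 CPM).

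The levels of the members across the 14 group means of log2 CPM, which share libraries with all tests above, tracked each other in part. Irf8 was left out, since it held 3 counts or fewer in each group without IFNg. Pearson's r was 0.97 for Irf1 with Irf2 and 0.98 for Irf7 with Irf9. Irf5 had r between 0.57 and 0.86 with the other induced members, and Irf3 had r between -0.26 and 0.41 with all others. Among 11033 genes, the most alike to Irf1 included Psmb10 (0.995) and Psme2 (0.993), which encode parts of the immunoproteasome and its activator. Those closest to Irf7 were Ifitm3, Oas1a and Isg15 (0.997 each), antiviral effectors, and those closest to Irf9 were Rtp4 (0.995), Ddx58 (0.993), which encodes the RNA sensor RIG-I, and Ifitm3 (0.983). Irf5 was most like Junb (0.989), Faah (0.983) and Slc39a2 (0.98), Irf2 most like Acsl5 (0.989), Bcl6 (0.988) and Tapbpl (0.986), and Irf3 most like D8Ertd738e (0.967), Hmg20b (0.956) and Hyi (0.951).

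Genes that work with the IRFs were counted from lists taken from general knowledge. Of 12 genes with well known ISGF3 sites (such as Isg15, Ifit1 and Rsad2), 12 rose under IFNb and 12 under IFNg in control B16 cells, with median log2 fold changes of 5.96 and 6.74 (5.57 and 6.74 with genes at 3 counts or fewer in a group set to 3 counts there). Of 10 tested genes with well known IRF1 dependence (such as Gbp2, Psmb9 and Tap1), 6 rose under IFNb and 9 under IFNg, with medians of 1.01 and 5.72 (1.01 and 5.6 with that floor), where 17% and 20% of all genes rose. In both comparisons with vehicle, 3 of the 12 and 4 of the 10 genes held 3 counts or fewer in a group. Where these were called higher, the call follows from the filter. In Ptpn2-null against control cells, 12 of the 12 ISGF3-site genes were higher under IFNg (median 1.09) and 8 under IFNb with IFNg (median 0.31), while 6 and 4 of the 10 IRF1-dependent genes were higher (medians 0.28 and 0.30, or 0.28 and 0.12 with that floor), beside 17.7% and 19.2% of all genes. The genotype effect on the ISGF3-site genes was larger under IFNg than under IFNb with IFNg in 12 of 12 (median 0.93), as it was for Irf7. Among 12 tested adaptors and kinases that activate IRF3, IRF5 and IRF7, 8 rose and 2 fell under IFNg in control cells (20% and 17.9% of all genes), and 8 were higher in Ptpn2-null cells under IFNg (17.7%). The median over all tested genes was -0.01 to 0.02 in these comparisons.

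In the human lines IFNg raised IRF1 and IRF9 in every line and both genotypes, while the other members differed between lines. In control cells the members called were 6 of 7 in HT29 (all higher, 30.8% of genes higher), 5 of 7 in A549 (all higher, 23.9%), 4 higher and 1 lower of 6 in A375 (33% and 33%) and 2 of 6 in MelJuSo (both higher, 6.32%). In cells labelled Ptpn2-null 6 of 6 rose in A375 (32.3% of genes), 6 of 7 in A549 (26.8%), 6 of 7 in HT29 (33.3%) and 5 of 6 in MelJuSo (27.2%). In control cells the median log2 fold change of the tested members was 2.57 in HT29, 1.77 in A549, 0.68 in A375 and 0.28 in MelJuSo, against 0.00 over all genes in each line. In A549 and HT29, IRF8 passed the filter only through IFNg groups, so its rise there follows from the filter. It is included in these counts and medians.

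**Figure D4:**
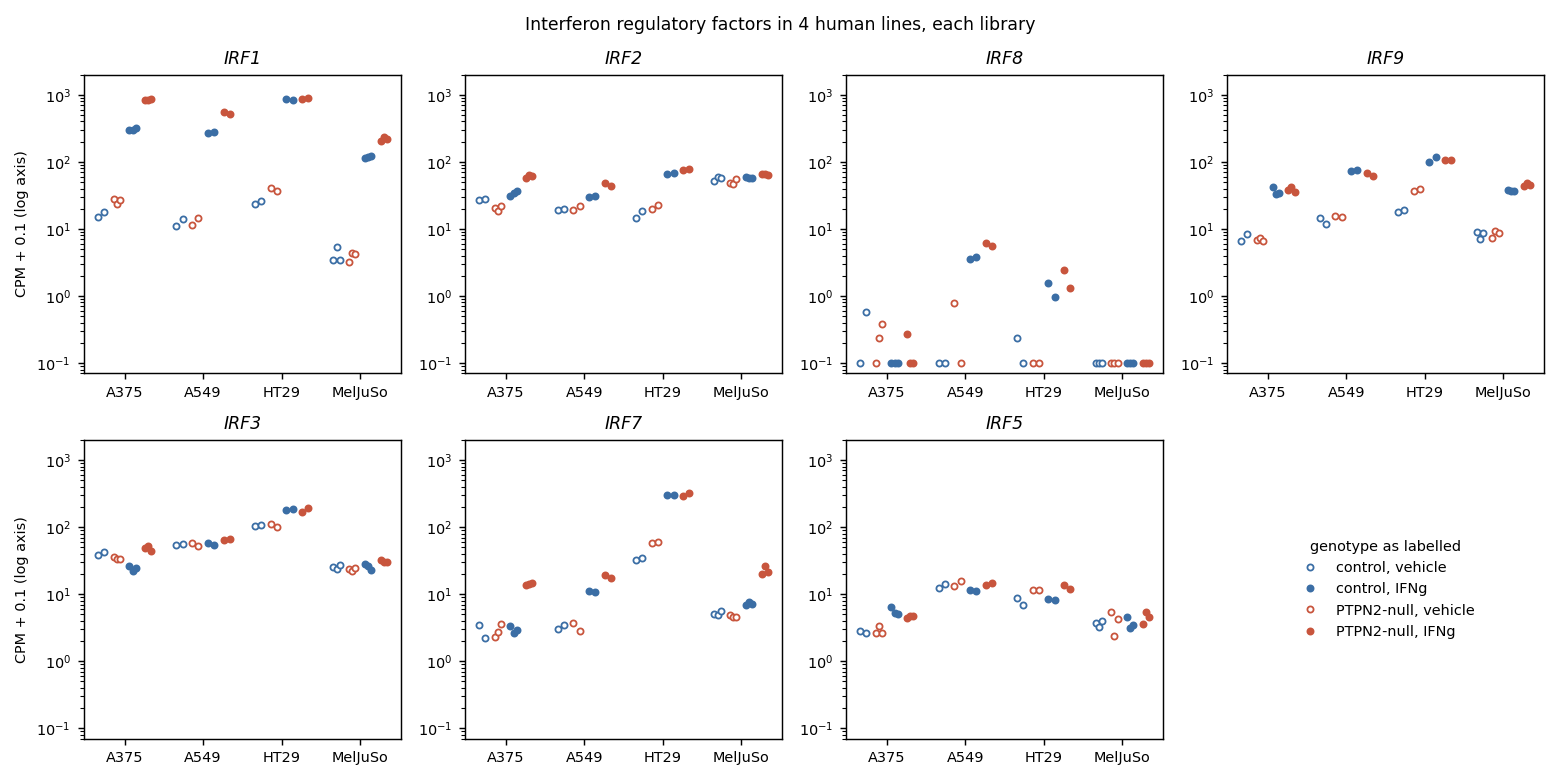
Level of each member in every library of the 4 human lines, as CPM plus 0.1 on a log axis, with open points for vehicle and filled points for IFNg and colours for the genotype as labelled. IRF1 and IRF9 are higher under IFNg in all lines, and IRF7 reaches 286 to 317 CPM in HT29 against 2.56 to 25.9 CPM in the other lines under IFNg.

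IRF1 rose by 4.23 ± 0.10 in A375 (15.0 and 17.5 to 301, 300 and 319 CPM), by 4.42 ± 0.11 in A549 (11.0 and 14.2 to 266 and 275 CPM), by 5.11 ± 0.08 in HT29 (23.2 and 26.3 to 866 and 845 CPM) and by 4.89 ± 0.16 in MelJuSo (3.36, 5.27 and 3.31 to 112, 117 and 123 CPM). All 4 rises were called (edgeR adjusted p of 4.2e-59 or smaller), and they differed among the lines in a joint fit of 39 libraries (edgeR F test, adjusted p = 3.2e-09). In A375 the IRF1 rise was 3.55 against the vehicle libraries labelled null. Among all 15322 genes of the joint fit, 66.9% differed among lines in their IFNg response and 55.5% in the effect of genotype under IFNg.

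IRF9 rose by 2.57 ± 0.10 in HT29, 2.48 ± 0.12 in A549, 2.30 ± 0.17 in A375 and 2.16 ± 0.12 in MelJuSo control cells. In the joint fit of the 4 lines the IRF9 rises spanned 0.37 on the log2 scale and were not called different among the lines (edgeR F test, adjusted p = 0.17). IRF9 levels under IFNg were 101 and 117 CPM in HT29, 72.2 and 74.4 in A549, 42, 33.0 and 34.5 in A375 and 38.2, 36.2 and 36.4 in MelJuSo. Each lay above all vehicle libraries of its line.

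IRF7 was the member whose IFNg response spread most across the lines, by 3.04 on the log2 scale in the joint fit (edgeR F test, adjusted p = 7e-37). It went from 31.7 and 35.0 to 306 and 299 CPM in HT29 (3.18 ± 0.07, edgeR adjusted p = 1.2e-45) and from 2.95 and 3.33 to 10.9 and 10.6 CPM in A549 (1.77 ± 0.27, edgeR adjusted p = 5.1e-12). In MelJuSo it went from 4.98, 4.72 and 5.46 to 6.69, 7.47 and 7.07 CPM, without overlap but not called (0.49 ± 0.18, edgeR adjusted p = 0.065). In A375 control libraries under IFNg it was at 3.31, 2.56 and 2.86 CPM, within the spread of the vehicle libraries of either label (0.10 ± 0.32, edgeR adjusted p = 0.78).

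IRF2 rose in control cells of HT29 (2.02 ± 0.11), A549 (0.62 ± 0.12) and A375 (0.30 ± 0.10, or 0.73 against the vehicle libraries labelled null, and no longer called without control vehicle replicate 2) and was at 58.1 ± 0.686 against 55.9 ± 3.45 CPM in MelJuSo (SD, n = 3, edgeR adjusted p = 0.65). IRF3 rose in HT29, from 104 and 106 to 177 and 186 CPM (0.79 ± 0.06, edgeR adjusted p = 7e-17), and fell by 0.76 in A375 (SE 0.10, edgeR adjusted p = 1.1e-12), or by 0.50 against the vehicle libraries labelled null. Its differences in A549 and MelJuSo were 0.06 and 0.03, neither called. IRF5 rose in A375 by 1.06 ± 0.30 (edgeR adjusted p = 0.00038) and was not called in the other 3 lines, where the differences were -0.24, 0.10 and 0.02. IRF5 no longer differed among lines without A375 (edgeR F test, adjusted p = 0.6).

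IRF8 had no count in the control vehicle libraries of A549 and 50 counts in those of IFNg, at 3.51 and 3.77 CPM, at least 16.2-fold more when vehicle is set at 3 counts. In HT29 control cells it had 1 count under vehicle and 16 under IFNg, a ratio of 18.2 with an exact binomial counting interval of 2.82 to 762. HT29 cells labelled Ptpn2-null went from 0 to 28 counts, at least 11-fold. A375 libraries held 3 counts or fewer per group, and MelJuSo libraries none in 12, which was not enough to see a difference. Intervals and floors of counts cover counting error only.

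The genotype was compared in each human line. Under IFNg, 4 of 6 members were higher in A375 (25.8% of genes higher), 3 of 7 in A549 (13%), 5 of 6 in MelJuSo (25.5%) and 2 of 7 in HT29 (21.3%) in the cells labelled Ptpn2-null. The counts in HT29 and MelJuSo became 0 and 3 with DESeq2. Under vehicle 0 members were called in A549 (2.95% of genes in either direction) and MelJuSo (1.64%), also with DESeq2, with 1 in each at an unadjusted edgeR p below 0.05, and 5 of 7 were higher in HT29 (12.5%). In A375, by label only, 1 member was higher and 2 lower under vehicle (12.4% and 8.73% of genes): the log2 differences were 0.68 for IRF1, -0.43 for IRF2 and -0.26 for IRF3, the last lost with DESeq2 (adjusted p = 0.15) and when any of 3 libraries was left out (edgeR adjusted p = 0.053 to 0.34). The largest genotype effects under IFNg were those on IRF7 in A375 and MelJuSo.

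**Figure D5:**
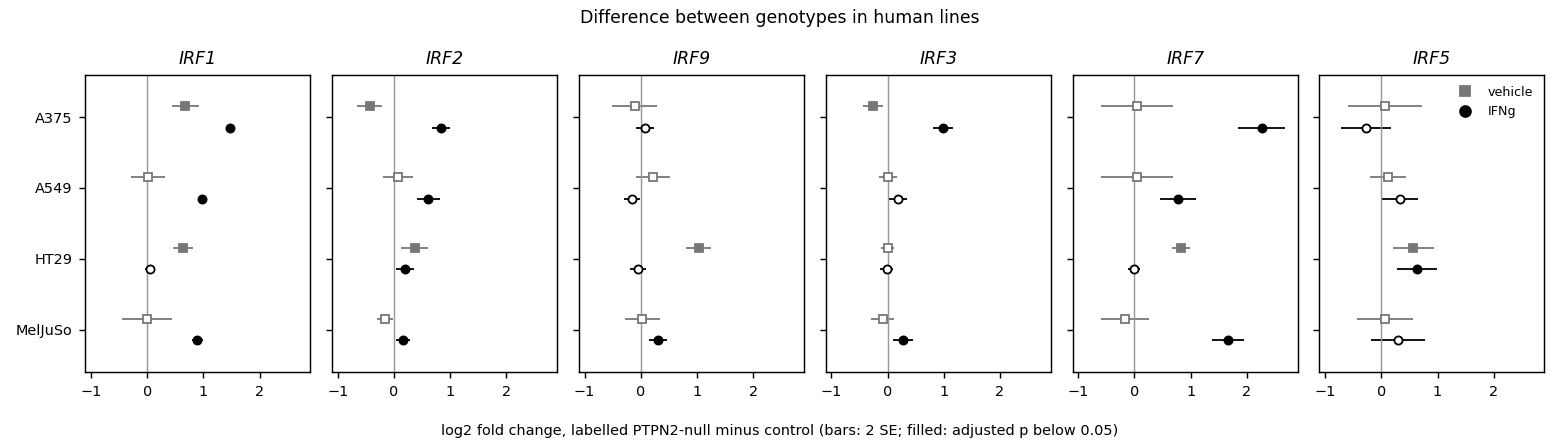
Log2 fold change between cells labelled PTPN2-null and control in each human line under vehicle (grey squares) and IFNg (black circles), with bars of 2 SE and filled symbols where the edgeR adjusted p is below 0.05. HT29 differs under vehicle for IRF1, IRF7 and IRF9 (0.64, 0.83 and 1.03) and lies near 0 under IFNg, and the other lines show the reverse for IRF1 and IRF7 except for IRF1 in A375.

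IRF7 under IFNg stood at 13.4, 13.8 and 14.7 CPM in Ptpn2-null A375 cells against 3.31, 2.56 and 2.86 CPM in controls (2.26 ± 0.21, edgeR adjusted p = 7e-24). In MelJuSo it was at 20.1, 25.9 and 21.2 against 6.69, 7.47 and 7.07 CPM (1.66 ± 0.14, edgeR adjusted p = 4e-21) and in A549 at 19.4 and 17.4 against 10.9 and 10.6 CPM (0.78 ± 0.16, edgeR adjusted p = 1.8e-05). In HT29 the genotypes overlapped, at 286 and 317 against 306 and 299 CPM (-0.01 ± 0.05, interval -0.10 to 0.09). The effect of genotype on IRF7 under IFNg differed among the lines (edgeR F test, adjusted p = 6.8e-40).

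IRF1 under IFNg was higher in Ptpn2-null cells by 1.47 ± 0.03 in A375, 0.98 ± 0.04 in A549 and 0.89 ± 0.05 in MelJuSo (edgeR adjusted p = 1.3e-112, 2.9e-139 and 4.9e-34). The libraries were 843, 826 and 872 against 301, 300 and 319 CPM in A375, 544 and 524 against 266 and 275 CPM in A549, and 206, 231 and 216 against 112, 117 and 123 CPM in MelJuSo. HT29 held 874 and 899 against 866 and 845 CPM, a difference of 0.05 ± 0.04 that was not called (edgeR adjusted p = 0.28). IRF2 was higher by 0.61 ± 0.10 in A549, 0.84 ± 0.07 in A375, 0.20 ± 0.08 in HT29 and 0.16 ± 0.06 in MelJuSo, all called with edgeR, the last 2 of them not with DESeq2 (adjusted p = 0.23 and 0.12). IRF3 was higher by 0.99 ± 0.08 in A375 and 0.27 ± 0.09 in MelJuSo (edgeR adjusted p = 2.8e-23 and 0.0079, the latter 0.059 with DESeq2), and its genotype effect no longer differed among the lines without A375 (edgeR F test, adjusted p = 0.11).

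IRF9 under IFNg differed between genotypes by 0.07 in A375, -0.16 in A549 and -0.05 in HT29, none called, and was higher by 0.31 ± 0.08 in MelJuSo (edgeR adjusted p = 0.00052), where Ptpn2-null libraries held 42.8, 48.7 and 45.4 CPM and controls 36.2 to 38.2 CPM. This difference among lines was called (edgeR F test, adjusted p = 0.001). The A549 libraries of IRF9 did not overlap, at 62.2 and 68.6 CPM in Ptpn2-null and 72.2 and 74.4 CPM in control cells. In that line 7 of 7 members had an unadjusted edgeR p below 0.05 between genotypes under IFNg. IRF5 was higher in Ptpn2-null HT29 cells by 0.63 ± 0.18 (edgeR adjusted p = 0.0033, and 0.07 with DESeq2) and by 0.33 ± 0.16 in A549, which was not called (adjusted p = 0.13).

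The change of the IFNg response with genotype was tested directly. It was larger in cells labelled Ptpn2-null for IRF1 in A375 (0.79 ± 0.12), A549 (0.96 ± 0.15) and MelJuSo (0.89 ± 0.23) and for IRF7 in A375 (2.21 ± 0.38) and MelJuSo (1.83 ± 0.25), all called with edgeR. In all, 4 of 6 members had a larger response in A375 (23.1% of genes), 4 of 6 in MelJuSo (16.6%) and 2 of 7 in A549 (6.36%). The A549 call for IRF2, 0.55, was lost with DESeq2 (adjusted p = 0.21) and when any of 4 libraries was left out (edgeR adjusted p = 0.065 to 0.14). The MelJuSo call for IRF3, 0.37, was lost with DESeq2 (adjusted p = 0.1) and when any of 4 libraries was left out (edgeR adjusted p = 0.059 to 0.087). For A375 the size of these values rests on the vehicle libraries whose PTPN2 goes against the labels.

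HT29 went the other way, with 3 of 7 members showing a smaller response in Ptpn2-null cells (11.8% of genes lower). IRF9 under vehicle was at 36.0 and 39.4 CPM in Ptpn2-null and 17.8 and 18.9 CPM in control cells (1.03 ± 0.11, edgeR adjusted p = 2.5e-11). IRF7 was at 58.4 and 60.4 against 31.7 and 35.0 CPM (0.83 ± 0.08, edgeR adjusted p = 3.9e-12) and IRF1 at 41.1 and 36.1 against 23.2 and 26.3 CPM (0.64 ± 0.09, edgeR adjusted p = 1e-07). Their IFNg responses were smaller in Ptpn2-null cells by 1.08, 0.83 and 0.59 (edgeR adjusted p = 9.2e-10, 2.6e-10 and 3.3e-06). IRF2 and IRF5 were also called under vehicle (0.37 and 0.57, edgeR adjusted p = 0.022 and 0.012), and neither was with DESeq2 (adjusted p = 0.13 and 0.19).

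Of the 12 ISGF3-site genes, 12 were higher in Ptpn2-null than in control HT29 cells under vehicle (median log2 1.81, against 0.02 over all genes), and under IFNg 3 were higher and 6 lower (median -0.08). Of all genes, 12.5% were higher under vehicle, and 21.3% were higher and 20.5% lower under IFNg. IFNB1, the interferon that feeds this pathway, had 0 counts in both control vehicle libraries, 5 and 1 in the Ptpn2-null vehicle libraries, 139 and 138 under IFNg in controls and 152 and 90 in Ptpn2-null cells. The part of IFNB1 in these differences was not tested. In the other lines the ISGF3-site genes higher in Ptpn2-null cells under IFNg numbered 12 of 12 in A375 (median 2.44), 12 of 12 in A549 (1.05) and 10 of 11 in MelJuSo (1.60). The shares of all genes called higher there were 25.8%, 13% and 25.5%.

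Of the other family genes, IRF4, a factor of lymphocytes and melanocytes, passed in MelJuSo, where IFNg raised it by 0.43 ± 0.11 in control cells and it was lower in Ptpn2-null cells under IFNg by 0.74 ± 0.11 (edgeR adjusted p = 0.002 and 1.6e-08).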

How the data were processed

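Messenger RNA of 81 libraries in 30 groups was captured and sequenced as directional paired ends, per the labels' protocols. The deposited values are whole-number counts per gene, made by the authors. The submitters' processing notes list bcl2fastq 2.17.1.14, Trimmomatic 0.33, Bowtie2 2.2.4, HTSeq 0.6.1p1, DESeq2 and the builds mm10 and hg19. For annotation and strand setting, the entry is "not given in the sources used here".

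The members and the gene lists were chosen with earlier results of these data known. Each line was fitted alone on its whole table in edgeR 4.0.16 (R 4.3.3, limma 3.58.1): filterByExpr, TMM scaling, robust quasi-likelihood F tests over all groups, and Benjamini-Hochberg adjustment over all tested genes with a threshold of 0.05. Standard errors are Wald errors on the log2 scale, and intervals span 2 of them either side. Genes tested were 12271 in MelJuSo, 12555 in HT29, 13172 in A549, 13410 in A375 and 11726 in B16, and 15322 in the joint fit of the 39 human libraries. Groups of 3 counts or fewer are given as counts, with a floor of 3 counts over the group. Other members of the text were named by rule: the 3 genes with the highest Pearson r over the 14 B16 group means, not given for Irf8.

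Alternatives were DESeq2 1.42.0, its size factors in edgeR, no filter, only the groups compared, a replicate block and each library left out. Chosen after the data were seen were the 3 differences of the genotype effect between B16 treatments, the fit without the 5 libraries that stand apart (SD of log2 deviations above 0.12), removal of the transcript length trend, the A375 comparison with vehicle libraries of the other label, and the floors of list medians. Scripts were tested on simulated data. Some items are not reported here. No 2 libraries agreed within sampling noise.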

Additional observations from a re-analysis of the deposited data

Results flagged for a closer look

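Several effects differed between groups by a test of the difference itself (edgeR quasi-likelihood, Benjamini-Hochberg adjusted over all genes). In B16 the response was larger in Ptpn2-null cells for Irf5 under IFNg (log2 difference 3.35), IFNb with IFNg (2.10) and IFNg with TNFa (2.22), and for Irf1 under IFNb with IFNg (0.36) and IFNg with TNFa (0.44). All calls for the pairs were lost without control vehicle replicate 2 (edgeR adjusted p = 0.085 to 0.25). The sizes for Irf5 rest in part on vehicle groups of 10 (control) and 6 (Ptpn2-null) counts.

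Between B16 treatments, the effect of genotype was larger under IFNg than under IFNb for Irf5 (2.18, lost without control IFNb replicate 3, edgeR adjusted p = 0.078), Irf7 (0.68) and Irf2 (0.52). It was larger under IFNg than under IFNb with IFNg for Irf5 (1.25) and Irf7 (0.96), and smaller under IFNg with TNFa than under IFNg for Irf5 (-1.12) and Irf7 (-0.37). These 3 contrasts were chosen after the data were seen.

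In the human lines the IFNg response was larger in cells labelled Ptpn2-null for IRF1 (0.79), IRF2 (1.28), IRF3 (1.25) and IRF7 (2.21) in A375, for IRF1 (0.96) and IRF2 (0.55) in A549, and for IRF1 (0.89), IRF2 (0.32), IRF3 (0.37) and IRF7 (1.83) in MelJuSo. It was smaller in HT29 for IRF1 (-0.59), IRF7 (-0.83) and IRF9 (-1.08). The calls for IRF2 in A549 and IRF3 in MelJuSo were lost with DESeq2 (adjusted p = 0.21 and 0.1) and when single libraries were left out. The A375 values rest on the vehicle libraries whose PTPN2 goes against the labels.

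Among the 4 human lines the IFNg response of control cells differed, from the lowest to the highest line, by 0.84 for IRF1, 1.92 for IRF2, 1.51 for IRF3, 1.32 for IRF5 and 3.04 for IRF7. The effect of genotype under IFNg differed by 1.37 for IRF1, 0.68 for IRF2, 0.96 for IRF3, 0.95 for IRF5, 2.22 for IRF7 and 0.46 for IRF9. Without A375 the calls for IRF5 in both tests (0.30 and 0.38) and for IRF3 in the second (0.23) were lost. The call for IRF5 in the second was also lost with DESeq2 (adjusted p = 0.11) and when any of 3 libraries was left out (edgeR adjusted p = 0.054 to 0.12).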

How the results depend on the processing

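Of 316 tests of single members, 280 kept their side of the threshold under every alternative run. Of 4407 alternative values, 101 were no longer past the threshold and 10 newly past it. None changed direction where it or the main value was called. Direction was not checked for values called in neither, nor for differences among the human lines, which carry no sign. Of 51 counts of members called, 40 stayed within 1.5 times. With only the groups compared, the count fell from 5 to 3 for genotype under IFNb with IFNg in B16 (3 also with the length trend removed) and from 2 to 0 for the change of that response, and rose from 3 to 5 for genotype under IFNg in A549. The change of the IFNg response in B16 rose from 1 member to 2 with only the groups compared, with DESeq2's size factors and without the 5 libraries that stand apart. DESeq2 gave 1 instead of 2 for the change of response in A549, 3 instead of 5 and 0 instead of 2 for genotype in HT29 under vehicle and IFNg, and 3 instead of 5 in MelJuSo under IFNg. The cause of these changes was not tested.

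Leaving out 1 library at a time gave 0 to 2 members for genotype under IFNb in B16, 3 to 5 under IFNb with IFNg and 1 to 2 under IFNb with TNFa. For the change of response it gave 1 to 2 for IFNg, 0 to 2 for IFNb with IFNg and 0 to 3 for IFNg with TNFa in B16, and 1 to 2 in A549. For genotype it gave 3 to 4 in HT29 under vehicle, 0 to 1 in HT29 under IFNg and 3 to 5 in MelJuSo under IFNg.

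Replicate numbers were not used in the main tests. Deviations of same-numbered libraries had a median correlation of -0.016 to 0.04 by line. Single pairs of libraries spread most in B16, from -0.671 to 0.701. A replicate block changed 0 of 316 calls of single members. Libraries correlated best with their own number in 8 of 8 in A549, 8 of 8 in HT29 and 12 of 12 in MelJuSo, 14 of 42 in B16 and 3 of 11 in A375, a hint from the data and not the design. In A549 and HT29 the deviations of the 2 libraries of a group mirror each other, so the 8 matches are not separate observations. Depth limits Irf5, Irf7 and Irf8 in B16 vehicle libraries and IRF8 in the human lines.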
